A study of Mus musculus with 36 samples.

Results

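Gene bodies were examined as the set of autosomal CpG cytosines that lie inside a RefSeq gene of the mouse genome (build GRCm38) and more than 2 kb from any annotated transcription start. A cytosine entered the set of a week when it had a coverage of at least 10 reads in all 6 oxidative bisulfite (oxBS) libraries of that week. This left 342406 of 1424652 autosomal cytosines at 4 weeks (24.03%) and 316105 of 1252526 at 12 weeks (25.24%). Of these, 124928 lay in exons and 217478 in introns at 4 weeks, and 113212 lay in exons and 202893 in introns at 12 weeks. In all, 362842 cytosines were measured in at least 1 of the weeks and 295669 in both. They fell in 17300 genes at 4 weeks and 17077 at 12 weeks, of which 12506 and 12363 coded for protein, with a median of 10 and 9 cytosines per gene and at most 775 and 740.

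The study destabilized the medial meniscus (DMM), an operation that leads to osteoarthritis, in the right knee of male C57BL/6J mice that were 12 weeks old at surgery. The left knee of the same mice was not operated and served as control, with no sham operation, so operated and unoperated also means right and left. Articular cartilage was microdissected from the joint surfaces of tibia and femur at 4 or 12 weeks after surgery, and 3 knees were pooled into each DNA sample, giving 3 control and 3 DMM samples per week. RNA was taken from other mice in the same layout, so RNA and methylation could not be matched sample by sample. Each DNA sample was read as reduced representation libraries cut by MspI at CCGG, once after bisulfite alone (BS), which reads 5-methylcytosine (5mC) and 5-hydroxymethylcytosine (5hmC) together, and once after oxidation and bisulfite (oxBS), which reads 5mC only. The oxBS percentage of methylated reads is given here as 5mC, and the BS minus the oxBS percentage, in points, as 5hmC. The latter was available for 319094 cytosines at 4 weeks and 296314 at 12 weeks. Both quantities use the same oxBS library, so a lower oxBS reading lowers 5mC and raises 5hmC at once, and single values of 5hmC can fall below 0.

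Methylation of CpGs is laid down by the DNMT enzymes, and promoters rich in CpGs are usually free of it while the transcribed bodies of genes are usually methylated. TET enzymes oxidize 5mC to 5hmC, a step on the way to demethylation, and 5hmC is known to gather in the bodies of transcribed genes. In chondrocytes, the cells that build and keep cartilage matrix, both marks have been studied in osteoarthritis because they can alter how matrix and signalling genes are used.

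The coverage of a typical cytosine was a median of 22 to 102 reads per oxBS library and 19 to 75 per BS library, and the 4-week libraries differed most, with control 2 the deepest and DMM 2 the shallowest. Methylated reads on the mitochondrial genome, which carries little methylation and so bounds failed conversion, made up 0.284% to 0.742% of calls in the oxBS libraries. In the RNA libraries all markers of cartilage were found, and their summed level was 7424 to 21793 CPM, read counts scaled to the library total. Markers of skeletal muscle (39.6 to 9313), red cells (4195 to 14502), marrow (3779 to 20902) and osteoblasts (4644 to 10289) were also present, none of them at 0. At 4 weeks muscle markers were 3121 to 9313 in control and 199 to 1706 in DMM libraries, fibroblast and synovium markers were 51.8 to 156 in control and 249 to 491 in DMM libraries, and osteoblast markers were 4644 to 5710 in control and 6932 to 9140 in DMM libraries, so that all 3 lists separated the limbs. At 12 weeks the limbs overlapped in muscle markers, in fibroblast and synovium markers (23.3 to 65.98 and 46.0 to 75.5) and in osteoblast markers (5033 to 10289 and 7367 to 9395). A change in the mix of cells and a change within cells cannot be told apart in such bulk tissue, and the part of the cell mix in the results on methylation was not tested.

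Local changes are shown first as runs of neighbouring gene-body cytosines that were differentially methylated at 12 weeks. These cytosines, called DMCs, had a difference of at least 25 points with a q-value under 0.05 over all cytosines. A version of the test that allowed for variation among libraries, given below, called none of them. The following sequences show the 4 runs with the most DMCs outside untranslated regions, and 1 run of 3 DMCs in a listed gene of cartilage biology, Col6a3, chosen over an equal number in Tnfrsf11b for its larger mean difference (-31.92 against -31.88 points). They are the plus strand of GRCm38 with 20 or 21 bases on either side of the called CpGs, in lower case, and capitals mark the CpGs that were called, so that the called CpGs can be set against the CpGs that were not called or not covered.
Ccm2l, exon, chr2:153071956-153072089: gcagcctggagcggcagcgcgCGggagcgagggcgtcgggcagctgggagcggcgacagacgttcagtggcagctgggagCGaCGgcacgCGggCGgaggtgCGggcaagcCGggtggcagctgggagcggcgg
Gm31698, intron, chr9:47167864-47167959: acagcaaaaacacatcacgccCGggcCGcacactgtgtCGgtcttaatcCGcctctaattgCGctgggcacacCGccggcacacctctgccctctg
Taok3, exon, chr5:117241168-117241244: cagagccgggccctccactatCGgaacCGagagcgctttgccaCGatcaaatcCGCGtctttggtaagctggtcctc
Exoc3l2, exon, chr7:19469785-19469909: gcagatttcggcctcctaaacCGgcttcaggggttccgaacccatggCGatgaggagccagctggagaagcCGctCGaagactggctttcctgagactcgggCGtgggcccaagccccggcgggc
Col6a3, intron, chr1:90833333-90833387: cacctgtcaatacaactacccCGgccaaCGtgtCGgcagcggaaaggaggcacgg

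In the run in Ccm2l, a gene of the CCM2-like scaffold protein, 7 of the 19 CpGs in the window were called, all in exons and 6022 to 6113 bp from the nearest start. Their mean 5mC at 12 weeks was 51.5%, 48.5% and 44.6% in the control and 18.8%, 18.7% and 20.9% in the DMM libraries. All 3 DMM libraries thus lay far below all 3 control libraries, and the same cytosines read by BS gave 35.8%, 45.2% and 32.2% against 21.2%, 30.3% and 19.7%. At 4 weeks the oxBS values were 53.6%, 18.3% and 34.2% in control and 27.9%, 14.8% and 18.3% in DMM, where the limbs overlapped, with control 2 as low as DMM 3. The run in the intron of Gm31698, a predicted gene, held 7 DMCs at 6 of 8 CpGs and read 49.1%, 34.8% and 51.0% in control and 12.4%, 32.1% and 17.3% in DMM libraries. Here DMM 2 came close to control 2, while the other libraries were well apart. Taok3, which codes for a kinase of the TAO family, had a run of 5 DMCs in an exon, at 56.8%, 44.7% and 49.4% against 16.2%, 23.0% and 27.3%. Exoc3l2, an exocyst-related gene, had a run of 5 DMCs in an exon, at 64.3%, 57.9% and 58.2% against 29.8%, 34.7% and 32.9%. In Col6a3, which codes for a chain of the type VI collagen around chondrocytes, 3 intronic DMCs within 13 bp read 64.2%, 57.5% and 71.6% in control and 32.0%, 32.8% and 34.2% in DMM libraries. By BS the Col6a3 run read 65.1%, 52.6% and 59.1% against 58.6%, 33.3% and 35.8%, where DMM 1 lay above control 2. The Exoc3l2 run by BS read 63.4%, 51.7% and 56.2% against 36.3%, 51.4% and 40.7%, where DMM 2 almost met control 2, and in the other 3 runs shown the limbs did not overlap by BS. In every run shown but that of Col6a3, each control library read lower by BS than by oxBS, although BS reads both marks. In Col6a3 this held for control 2 and control 3. The control oxBS levels of these chosen runs are therefore uncertain. All 5 runs were lower in DMM, with coverage of 19 to 156 reads at each cytosine and library. A run of 6 DMCs in an exon of Sipa1, which codes for a GTPase-activating protein of RAP proteins, touches an untranslated region and is therefore not among the sequences, and it was higher in DMM, at 32.5%, 37.1% and 27.5% in control against 66.2%, 52.6% and 57.5% in DMM libraries. All of these runs were picked for their number of DMCs, so these values describe them and test nothing.

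Gene-body 5mC was high in every library and slightly lower in the operated limb. At 4 weeks the mean over gene-body cytosines was 63.4%, 59.8% and 61.2% in the control and 60.8%, 58.9% and 59.9% in the DMM libraries. The limbs overlapped at 4 weeks, since control 2 lay below DMM 1 and DMM 3. At 12 weeks it was 64.2%, 63.7% and 64.97% in control and 61.6%, 63.2% and 62.1% in DMM libraries, so that each DMM library was below each control library. The DMM limb was lower by a mean of 1.59 points at 4 weeks (61.5% ± 1.84 against 59.9% ± 0.912, SD, n = 3 each, exact two-sided permutation p = 0.3) and by 1.98 points at 12 weeks (64.3% ± 0.642 against 62.3% ± 0.848, exact p = 0.1, the smallest that 3 against 3 allow). Over both weeks, with limbs exchanged within each week in all 400 arrangements, the mean difference was -1.79 points (exact two-sided permutation p = 0.025). With each cytosine weighted by its reads it was -1.72 points and did not pass (exact permutation p = 0.055), nor did it without DMM 2 of 4 weeks (-1.56 points, exact permutation p = 0.055). Over the 295669 cytosines measured in both weeks, the limb difference changed by -0.356 points from 4 to 12 weeks, which was not detectable against the spread of the libraries (exact permutation p = 0.855).

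Gene-body 5hmC moved the other way. It was 3.75, 6.08 and 5.06 points in control and 5.39, 6.62 and 5.89 points in DMM libraries at 4 weeks, again with control 2 among the DMM libraries. At 12 weeks it was 3.47, 3.67 and 3.23 points in control and 5.29, 3.97 and 4.55 points in DMM libraries, with no overlap. The highest of these values, DMM 1, uses a BS file whose name carries another replicate number than its sample record, and its median coverage was 24 reads against 72 in the oxBS library of that sample. The other 5 pairs at 12 weeks were closer, from 28 and 19 to 48 and 41 reads by oxBS and BS. All 12-week 5hmC and BS values of DMM 1 rest on that record, and without DMM 1 the 12-week difference was 0.805 points (exact permutation p = 0.1, the smallest that 3 against 2 allow). The differences were 1.0 points at 4 weeks (4.96 ± 1.17 against 5.97 ± 0.620, exact two-sided permutation p = 0.3), 1.15 points at 12 weeks (3.46 ± 0.219 against 4.60 ± 0.660, exact p = 0.1) and 1.08 points over both weeks (exact p = 0.025). Weighted by reads the last was 0.985 points and did not pass (exact permutation p = 0.07), and it was also not under 0.05 without control 1, DMM 2 or DMM 3 of 4 weeks (0.773, 0.912 and 1.09 points, exact permutation p = 0.065, 0.075 and 0.055) and without control 3 of 12 weeks (1.02 points, exact permutation p = 0.05). The sum of both marks, read directly by BS, differed less, at 66.9% against 66.3% at 4 weeks (-0.62 points, exact permutation p = 0.2) and 67.7% against 66.8% at 12 weeks (-0.84 points, exact permutation p = 0.1). The share of gene-body cytosines whose BS reading fell below their oxBS reading, where no true 5hmC can be read, was 33.9% ± 1.39 in control and 30.3% ± 2.01 in DMM libraries at 12 weeks.

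**Figure D1:**
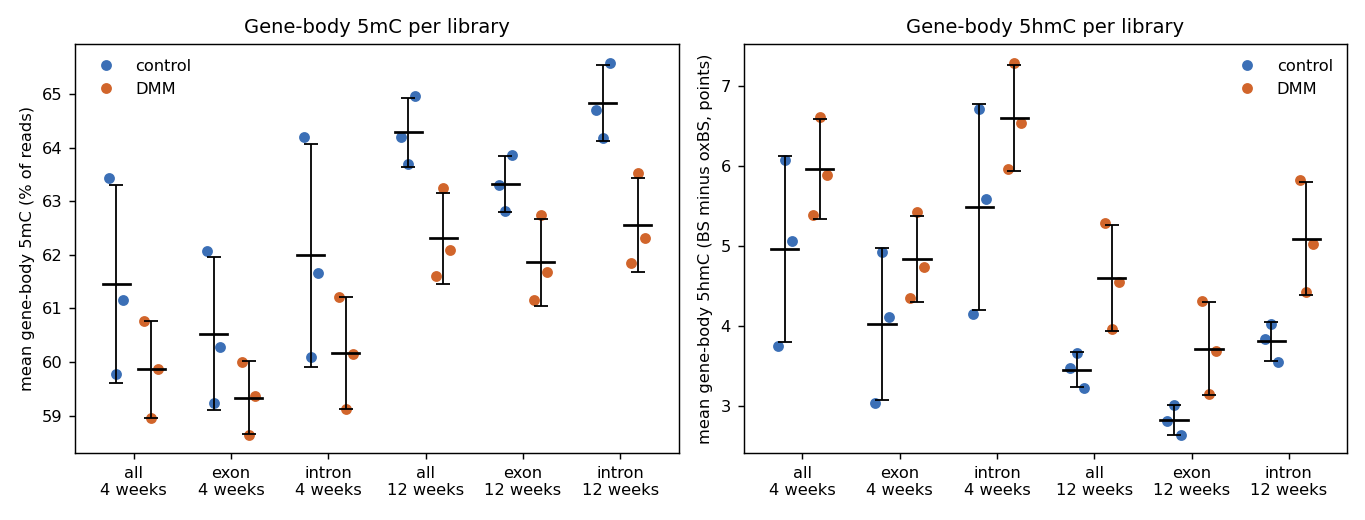
Mean gene-body 5mC (left, percent of reads) and 5hmC (right, BS minus oxBS in points) in all gene-body cytosines, in exons and in introns, for control (blue) and DMM (orange) limbs at 4 and 12 weeks; each point is 1 library, the thick bar the mean and the error bar the SD over 3 libraries, and the axes do not start at 0. At 12 weeks every DMM library lies below every control library in 5mC and above it in 5hmC, while at 4 weeks control 2 lies among the DMM libraries.

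Introns carried more of both marks than exons as a whole, though not more 5mC than coding exons, and gene bodies carried more than their surroundings. Exon 5mC was lower than intron 5mC by 1.14 points at 4 weeks and 1.10 points at 12 weeks, in 6 of 6 libraries each week (exact sign-flip permutation p = 0.031, the smallest for 6 libraries). This order depended on the annotation, since with curated transcripts alone exons were higher by 1.51 and 1.29 points. Exon 5hmC was lower than intron 5hmC by 1.61 and 1.18 points in 6 of 6 libraries (exact sign-flip permutation p = 0.031 in each week). Gene-body cytosines exceeded those within 2 kb of a start by 54.4 and 56.5 points of 5mC and by 4.74 and 3.45 points of 5hmC. They exceeded intergenic cytosines by 1.12 and 1.64 points of 5mC and 1.65 and 1.24 points of 5hmC, each in 6 of 6 libraries (exact sign-flip permutation p = 0.031 each). The limb difference in 5mC was larger in gene bodies than between genes by 0.423 points at 4 weeks and 0.519 points at 12 weeks, which exact permutation over 3 against 3 libraries could not separate from the spread at 4 weeks (p = 0.3) and placed at its smallest p at 12 weeks (p = 0.1).

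Within exons, control 5mC was highest in coding sequence (62.9% ± 1.31 at 4 weeks and 65.7% ± 0.521 at 12 weeks, beside 61.99% ± 2.08 and 64.8% ± 0.710 in introns), lower in untranslated exons (56.2% ± 1.83 and 58.8% ± 0.547) and lowest in exons of non-coding genes (46.7% ± 1.86 and 49.9% ± 0.492). Hydroxymethylation did not follow that order. It was 3.79 and 2.64 points in coding exons, 4.98 and 3.55 points in untranslated exons, and 5.49 and 3.81 points in introns. Repeats, marked by lower-case letters in the reference, had more 5mC than the rest of the gene bodies, at 73.5% ± 0.901 against 60.4% ± 1.92 at 4 weeks and 75.3% ± 0.414 against 63.3% ± 0.662 at 12 weeks, and held 27225 and 25275 of the cytosines. Their limb difference at 12 weeks was -0.805 points, against -2.08 points outside repeats. Where genes did not overlap, the 2 strands gave the same mean (62.4% on the strand of the gene and 62.4% on the other at 4 weeks, 65.3% and 65.3% at 12 weeks). Where a CpG was read on both strands (44620 and 34976 CpGs), the strands differed by a median of 3.34 and 3.53 points in mean control 5mC. The strands correlated at 0.757 and 0.856 in control 5mC. In control 5hmC they correlated at only 0.471 and 0.243 (33519 and 27775 CpGs), so values of single cytosines are less certain for 5hmC.

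Levels also differed widely with CpG density. With 7 to 10 CpGs within 100 bp on either side, control 5mC was 67.3% at 4 weeks and 69.8% at 12 weeks, with 11 to 15 it was 57.3% and 59.2%, and with 16 or more it was 18.7% ± 0.641 and 19.3% ± 0.126. The 30507 and 25981 gene-body cytosines of the last class therefore had levels nearer to those of promoters than to those of other gene-body cytosines. Control 5hmC fell through all classes, from 6.61 and 4.59 points with 1 to 3 CpGs to 1.03 and 0.819 points with 16 or more. The limb difference in 5mC at 12 weeks was -2.28 points with 1 to 3 CpGs, -2.42 with 4 to 6, -1.89 with 7 to 10, -1.16 with 11 to 15 and -0.505 with 16 or more.

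The level of 5mC rose with distance from a start without a step at 2 kb, the limit used to choose the set. Within genes, control 5mC was 3.24% and 3.36% in the nearest 0.5 kb at 4 and 12 weeks, 35.2% ± 1.19 and 37.8% ± 0.339 at 1.5 to 2 kb, just outside the limit, and 42.6% ± 1.49 and 45.4% ± 0.585 at 2 to 2.5 kb, just inside it. It reached 54.5% and 57.1% at 3 to 5 kb and 67.5% and 70.2% beyond 50 kb. Control 5hmC was 3.64 and 2.64 points just outside, 4.04 and 2.87 points just inside, 5.42 and 3.67 points at 20 to 50 kb, and lower again beyond 50 kb, at 4.91 and 3.35 points. Along protein-coding genes longer than 10 kb, divided into 10 equal bins from start to end, control 5mC went from 52.9% and 56.0% in bin 1 to 66.8% and 69.3% in bin 7 and was 64.01% and 66.9% in bin 10. Control 5hmC had its highest value nearer the start, at 5.81 and 4.05 points in bin 2, and its lowest at the end, at 4.74 and 3.31 points in bin 10.

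**Figure D2:**
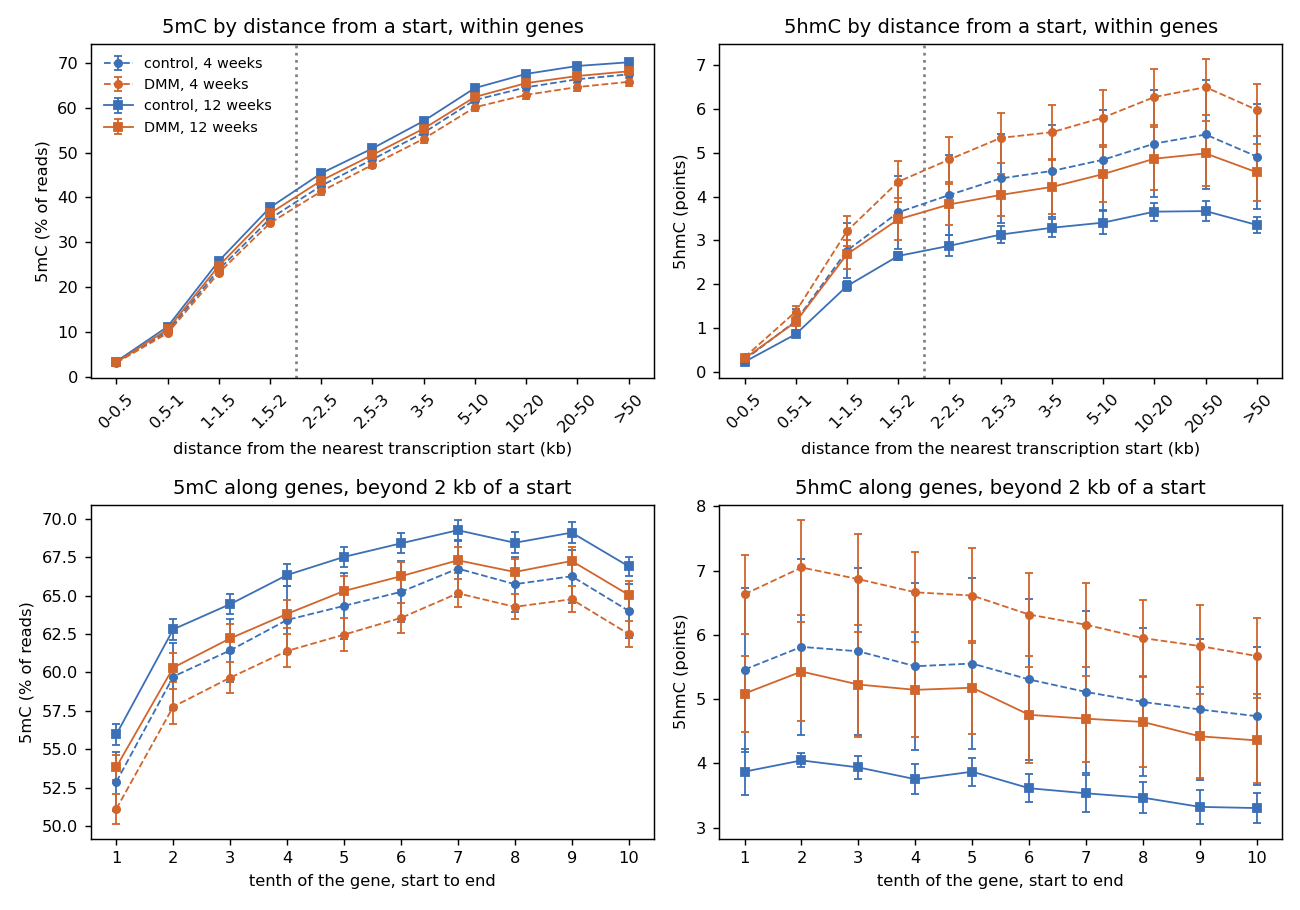
5mC (left, percent of reads) and 5hmC (right, points) against distance from the nearest transcription start in kb (top, with a dotted line at the 2 kb limit) and against the position in protein-coding genes longer than 10 kb, in 10 equal bins (bottom); lines join means of 3 libraries with SD, for control (blue) and DMM (orange) at 4 weeks (dashed) and 12 weeks (solid). Control 5mC climbs from 3.24% in the first 0.5 kb to 67.5% beyond 50 kb at 4 weeks, and 5hmC along genes is highest in bin 2, at 5.81 points.

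Cytosines of intermediate level held most of the change. Gene-body cytosines under 20% made up 14.6% ± 0.198 of the set in control and 15.8% ± 0.398 in DMM libraries at 12 weeks, with no overlap between limbs (exact permutation p = 0.1), and those over 80% made up 42.5% ± 1.40 and 40.8% ± 1.12, with overlap. When cytosines were sorted by their mean control 5mC, the 12-week limb difference was 0.185 points in the class under 20%, -3.51 points in the class from 20% to 80% and -1.22 points in the class over 80%. The control libraries set these classes and also enter the differences, so they are a description. Control 5hmC in the same classes was 1.57, 5.74 and 1.84 points at 12 weeks and 1.89, 7.98 and 2.80 points at 4 weeks, so that the intermediate cytosines also carried the most 5hmC.

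Gene-body 5hmC was lowest in genes with little or no RNA and highest in the class with the most, while 5mC was lowest in the class with the least RNA. Protein-coding genes were sorted by their mean RNA level in control libraries of the same week, as RPKM, the counts scaled to the library total and the transcript length, into a class under 1 and 4 classes with equal numbers of genes above it. At 4 weeks control 5hmC was 3.61, 5.65, 6.11, 6.31 and 6.81 points from the lowest to the highest class. At 12 weeks it was 2.54, 4.08, 4.31, 4.24 and 4.70 points. Control 5mC at 12 weeks was 60.2% in the class under 1, 67.9%, 69.0% and 70.8% in the next 3 classes and 68.9% in the highest. The limb difference in 5mC at 12 weeks grew with the class, at -1.42, -2.23, -2.37, -2.60 and -2.83 points. At 4 weeks it was -1.11, -1.67, -2.02, -1.96 and -2.501 points, with the same classes at both ends. The share of cytosines called as DMC at 12 weeks was 0.337% in the class under 1 and 0.752% in the highest class. Since RNA and DNA came from different mice, these classes describe genes and not samples, and each is the mean of 3 libraries with no test between classes.

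**Figure D3:**
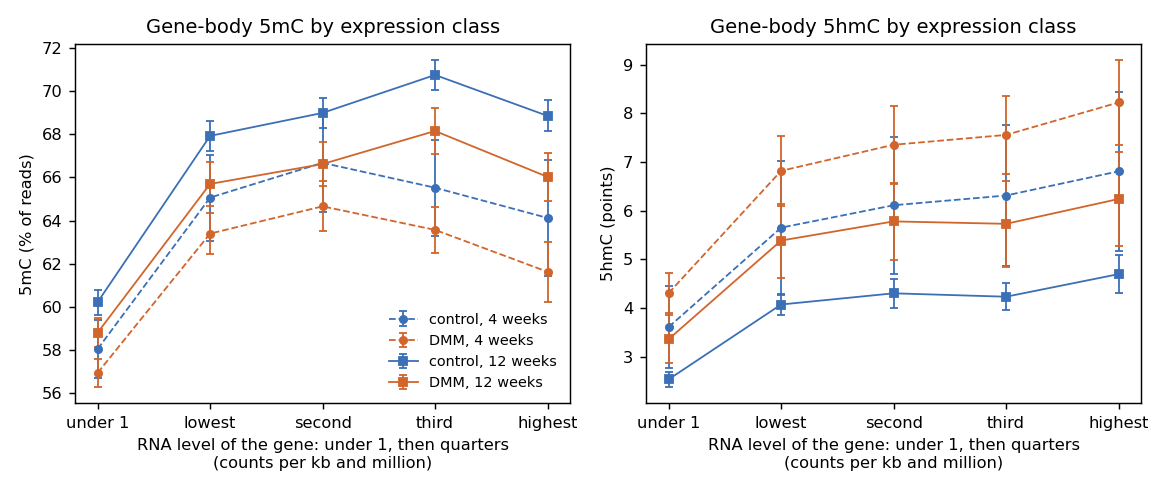
Gene-body 5mC (left, percent of reads) and 5hmC (right, points) by RNA level of the gene, from under 1 RPKM to the highest of 4 classes of equal size; lines join means of 3 libraries with SD for control (blue) and DMM (orange) at 4 weeks (dashed) and 12 weeks (solid). 5hmC is lowest in the class under 1 (3.61 points at 4 weeks and 2.54 at 12 weeks in control) and highest in the top class (6.81 and 4.70 points).

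At single cytosines, 3 gene-body DMCs were found at 4 weeks, 1 higher and 2 lower in DMM, and 1594 at 12 weeks. The low count at 4 weeks rested on control 2, without which 1680 were called (191 higher and 1489 lower), and 113 were called without DMM 1 of 4 weeks, whereas at 12 weeks the count was 899 without DMM 1 and 2969 without control 2. Over all cytosines of the series the same rule called 0.000554% in the 4-week libraries, 0.000208% in the direction of more 5mC in DMM and 0.000346% in that of less, against 0.227% in the 12-week libraries. In gene bodies the 12-week share was 0.504%, with 0.388% in exons and 0.569% in introns, against 0.0709% within 2 kb of a start and 0.384% between genes. DMM was lower at 1425 of the 1594 DMCs (0.2% of all cytosines of the series were called lower) and higher at 169 (0.027% of all). The test pooled the reads of each limb and so counts reads, not mice. The limbs did not overlap at 1207 of the 1425 lower and 158 of the 169 higher DMCs, as at 8.11% of all cytosines, and since the same libraries made the calls this adds no evidence. A version of the test that allowed for variation among libraries called 0 gene-body DMCs in either week. In it 2462 of 342406 cytosines at 4 weeks and 12281 of 316105 at 12 weeks had an unadjusted p under 0.05. Both counts are below the share of 0.05 that would be expected with no difference between limbs. Of the lower DMCs, 94.9% had a control level of 20% to 80% and 26.4% lay in exons. Among all 316105 gene-body cytosines of 12 weeks, 133276 had such a control level and 113212 lay in exons. A fall of at least 25 points cannot start from a low control level, so the threshold itself shapes the first share. The 3 DMCs at 4 weeks lay in the predicted gene Gm34705, in Vipr1, a receptor for a vasoactive peptide, and in the overlap of Col4a1, a basement membrane collagen chain, with Gm32709, and only the last was higher in DMM.

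The cytosines chosen at 12 weeks were then read in the libraries that had not chosen them. The lower DMCs, at 58.8% ± 3.8 in control and 32.2% ± 3.97 in DMM in the oxBS libraries that chose them, read 55.4% ± 2.63 against 43.6% ± 1.33 in BS libraries of the same samples (1347 cytosines, -11.8 points, exact permutation p = 0.1). Their control mean was thus lower by BS than by oxBS, although BS reads both marks. The control oxBS level of these chosen cytosines is therefore uncertain. The 4-week oxBS libraries gave 29.1%, 39.9% and 50.6% in control and 22.9%, 28.8% and 35.3% in DMM, from lowest to highest (1335 cytosines). There the limbs overlapped and the difference was -10.8 points (exact permutation p = 0.2). The 4-week BS libraries gave -9.24 points (1304 cytosines, exact permutation p = 0.2). The higher DMCs, chosen at 35.8% ± 1.72 against 63.9% ± 1.21, read 48.5% ± 1.75 against 61.5% ± 0.634 by BS at 12 weeks (156 cytosines, exact permutation p = 0.1) and 52.5% ± 10.2 against 62.3% ± 5.23 by oxBS at 4 weeks (152 cytosines, exact permutation p = 0.2). In each of these readings the direction was that of the 12-week call and the difference was smaller than in the libraries that made the call.

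**Figure D4:**
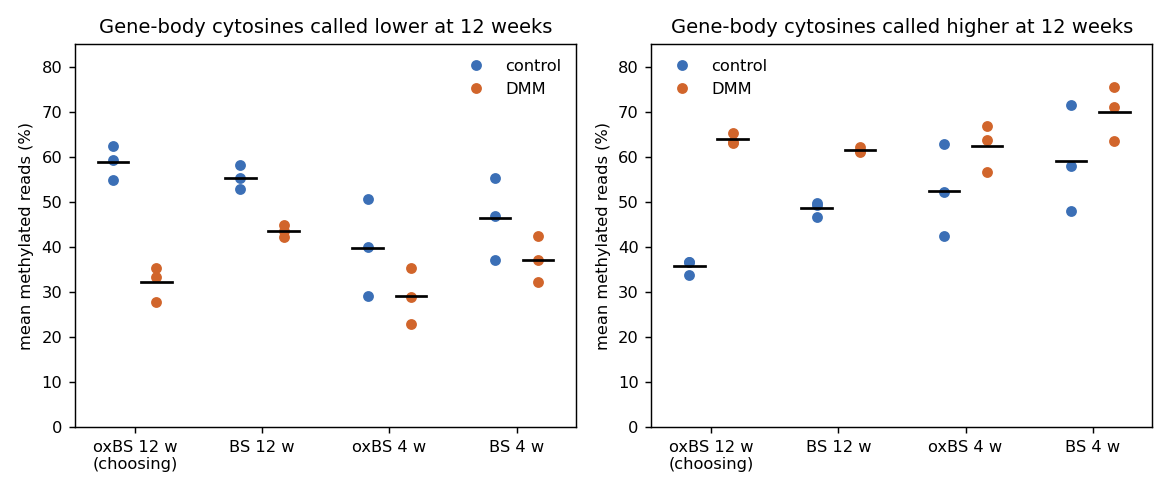
Mean percent of methylated reads at gene-body cytosines called lower (left) and higher (right) in DMM at 12 weeks, in the oxBS libraries that chose them and in the BS and 4-week libraries, for control (blue) and DMM (orange); each point is 1 library and the bar the mean of 3. The cytosines called lower fall from 58.8% to 32.2% in the choosing libraries, from 55.4% to 43.6% in BS at 12 weeks, and from 39.9% to 29.0% in oxBS at 4 weeks, where the limbs overlap.

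The 12-week DMCs were spread over 1085 genes, 922 of them protein coding. Of these genes 751 held 1 DMC, 142 held 3 or more and the highest number was 8. Of the genes with at least 5 gene-body cytosines, 1030 of 12247 (8.41%) held a DMC. Single DMCs that stood more than 100 bp from the next numbered 1043, 161 runs held 2, and 66 runs held 3 to 7 DMCs of 1 direction, 61 of them lower in DMM. The genes with the most DMCs were Nfix with 8, a nuclear factor I gene that codes for a transcription factor, Pxk, Ccm2l, Gm31698 and Zfpm1 with 7 each, and Kat6b, Gm15270, Ppp3ca, Sh3pxd2a and Exoc3l2 with 6 each. Zfpm1 codes for a partner of GATA factors, Kat6b for a histone acetyltransferase and Ppp3ca for the catalytic subunit of calcineurin. Sh3pxd2a codes for a scaffold of podosomes, contacts at which cells break down matrix. All of their DMCs were lower in DMM except 1 of the 6 in Ppp3ca. These genes differ in the number of cytosines measured (210 in Nfix and 304 in Sh3pxd2a, against 32 in Pxk and 66 in Ccm2l), which the count of DMCs does not allow for. Over the whole gene body, Ccm2l read 42.5%, 40.1% and 44.1% in control and 24.3%, 27.2% and 26.6% in DMM libraries, and Pxk read 66.2%, 71.4% and 71.3% against 51.4%, 59.5% and 59.0%, and these were the 2 of the 10 genes that passed the gene-level test described next.

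At the level of whole gene bodies, where 5mC of all cytosines of a gene was compared between libraries by limma, 187 of 12247 genes passed an adjusted p of 0.05 at 12 weeks (1.53% of genes tested), 167 lower in DMM (1.36%) and 20 higher (0.163%). At 4 weeks 0 of 12586 genes passed in limma, with 566 at an unadjusted p under 0.05, against 2547 at 12 weeks. With no difference a share of 0.05 would be expected, and only the 12-week count is above it. In 185 of the 187 genes the limbs did not overlap, as in 30.3% of all genes tested (26.2% lower and 4.03% higher in DMM), and since the same libraries made the call this adds no evidence. Of the 187, 9 shared cytosines with another called gene. The count moved with the settings, to 524 on the percentage scale, 389 with at least 10 cytosines per gene, 303 at a coverage of 20 and 110 without CCGG cytosines. It also rested on all 6 libraries. Without any 1 of 5 libraries (control 1, control 3, DMM 1, DMM 2 or DMM 3) limma called 0 genes, and without control 2 it called 70, of which 53 were among the 187. In each of these runs all 187 kept their direction and an unadjusted limma p under 0.05, but the remaining libraries had helped to choose them. The genes called lower had a median difference of -12.6 points and a median of 11 cytosines, and their control level was 55.8% where the median of all genes was 73.9%. The genes called higher had a median difference of 10.54 points.

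Gdf5, a growth factor of the joint-forming zone and articular cartilage, was among the genes with the largest fall. Its 15 cytosines read 46.0%, 41.8% and 46.6% in control and 21.1%, 26.6% and 25.5% in DMM libraries at 12 weeks, a difference of -20.4 points (limma log2 ratio of methylated to unmethylated reads -1.29, SE 0.19, adjusted p = 0.0255). The limbs were far apart, and BS libraries gave 42.6%, 45.2% and 43.4% against 33.8%, 33.6% and 22.4%. At 4 weeks the oxBS values of Gdf5 were 46.7%, 23.9% and 30.6% in control and 27.9%, 11.3% and 19.4% in DMM, with control 2 below DMM 1. Omd, the gene of osteomodulin, a small leucine-rich matrix proteoglycan that binds collagen, had 39.0%, 47.6% and 54.9% against 24.1%, 29.4% and 23.0% at 5 cytosines (-21.7 points, log2 ratio -1.41, SE 0.23, adjusted p = 0.0323 in limma). Omd lies inside Cenpp, a centromere protein gene also called lower, and its 5 cytosines are among the 16 of Cenpp, so that these 2 calls are not separate. Cdc42ep3, an effector of the cytoskeletal GTPase CDC42, had the largest fall, from 40.1%, 48.3% and 45.6% to 23.3%, 24.9% and 20.4% at 10 cytosines (-21.8 points, log2 ratio -1.46, SE 0.17, adjusted p = 0.0239). By BS, Cdc42ep3 read 38.5%, 46.8% and 41.8% against 31.6%, 36.7% and 32.3%, a smaller difference of -8.83 points. Robo4, a guidance receptor of endothelium, fell from 45.2%, 40.9% and 45.3% to 22.9%, 26.1% and 24.1%. By BS the limbs of Robo4 overlapped, at 38.4%, 36.6% and 33.9% against 31.9%, 36.8% and 23.0%, a difference of -5.70 points. Creb1, a cyclic AMP-responsive transcription factor, fell from 45.8%, 37.8% and 56.3% to 27.4%, 28.5% and 26.0%. Clta, a clathrin light chain, fell from 55.2%, 52.1% and 59.2% to 34.4%, 36.8% and 37.6%. The other genes of the 10 with the largest fall were Upk3a, Aknad1, 4930540E01Rik and Gm36778, with differences of -18.1, -17.9, -20.2 and -19.7 points at 5 to 7 cytosines each.

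Dlx5, a homeobox factor of bone formation and chondrocyte maturation, rose. Its 13 gene-body cytosines read 15.8%, 16.1% and 15.4% in control and 28.4%, 28.1% and 26.7% in DMM libraries at 12 weeks (12.0 points, limma log2 ratio 0.99, SE 0.14, adjusted p = 0.0239). The libraries of each limb lay within 2 points of each other, and BS gave 27.2%, 32.8% and 25.5% against 38.9%, 45.9% and 44.0%. Scarf2, a scavenger receptor family gene with 128 cytosines, read 26.5%, 28.0% and 27.0% against 38.4%, 40.5% and 37.3% (11.5 points, log2 ratio 0.75, SE 0.13, adjusted p = 0.0366). BS gave 33.6%, 30.6% and 30.7% against 46.3%, 43.9% and 44.98% for Scarf2, again with the limbs apart. Nr4a2, an orphan nuclear receptor with 81 cytosines, read 43.1%, 46.3% and 41.0% against 57.3%, 53.8% and 54.8% (11.8 points, adjusted p = 0.0409 in limma). Mafg, a small MAF transcription factor, went from 21.9%, 29.5% and 27.7% to 41.4%, 38.9% and 37.3%, and Rinl from 37.8%, 39.1% and 35.6% to 53.3%, 55.4% and 48.8%. The others among the 10 largest rises were 4930471L23Rik, 2900052L18Rik, Gm17250, Scimp and Gm40085, by 17.01, 16.1, 15.9, 11.4 and 10.6 points. By BS the limbs overlapped in 4930471L23Rik (65.5%, 67.7% and 47.7% against 66.7%, 64.3% and 65.9%, a difference of 5.35 points). They also overlapped by BS in Scimp and Gm40085, and in the rest of the 10 they did not.

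**Figure D5:**
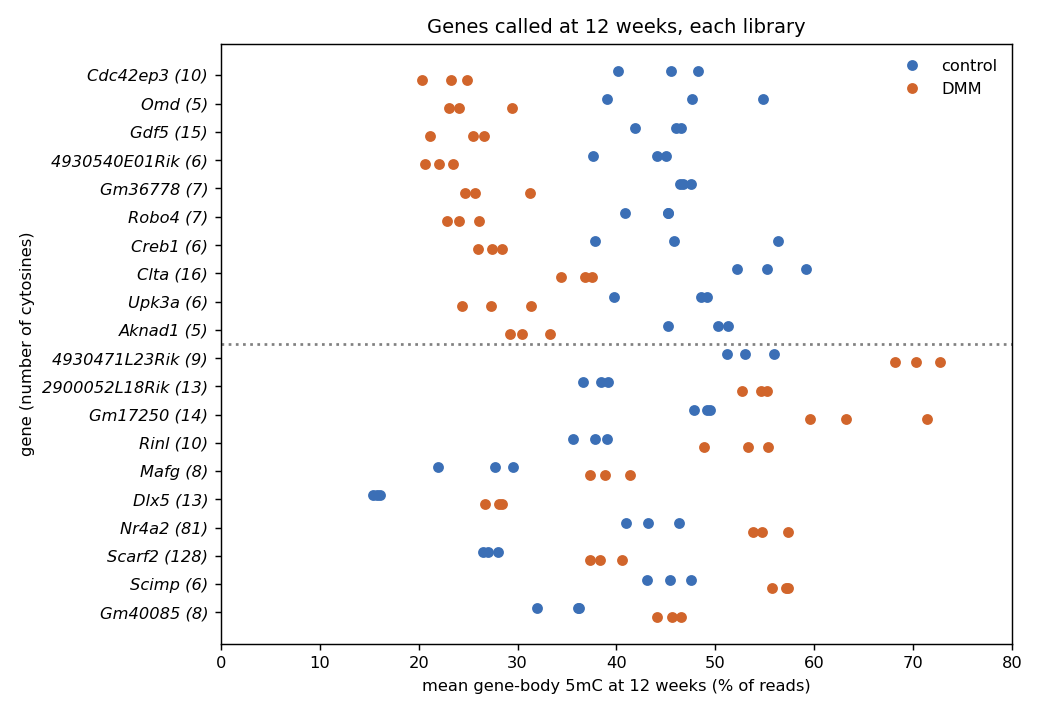
Mean gene-body 5mC at 12 weeks (percent of reads) in each control (blue) and DMM (orange) library for the 10 genes called lower (above the dotted line) and the 10 called higher (below it) with the largest differences; the number of cytosines is given beside each gene. No gene shown has overlapping limbs, and Scarf2 with 128 and Nr4a2 with 81 cytosines rest on the most positions.

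All but 1 of the genes called at 12 weeks that were also measured at 4 weeks differed in the same direction there, in mice that had no part in the call. Of the 160 genes called lower that were also measured at 4 weeks, 160 were lower in DMM, as were 73.4% of all genes, with a median difference of -7.85 points. Their mean 5mC at 4 weeks was 53.6%, 37.4% and 46.1% in control and 42.2%, 33.2% and 37.4% in DMM libraries, which overlapped (-8.09 points, exact permutation p = 0.2). Of the 20 called higher, 19 were higher at 4 weeks, with a median of 5.80 points and library means of 46.0%, 58.9% and 52.5% against 56.0%, 62.6% and 58.8% (6.65 points, exact permutation p = 0.3). The BS libraries of 12 weeks hold the same DNA samples as the oxBS libraries that made the call, so they are not independent of it. In them 165 of the 167 genes called lower were lower (57.1% against 48.6%, -8.52 points, exact permutation p = 0.1). By oxBS 73.7% of all genes tested were lower at 12 weeks, and their share by BS was not computed. Of the 20 genes called higher, 19 were higher by BS (52.9% against 61.5%, 8.64 points, exact permutation p = 0.1). By oxBS the genes called lower had read 54.6% against 42.0%, and those called higher 46.4% against 57.5%. Among protein-coding genes called lower, 84.3% of the 108 with an RNA value had a level of at least 1 RPKM, against 64.6% of all 9298, and their median RNA level was 8.61 against 2.74 RPKM. Genes called higher had similar values, with 78.6% of 14 at 1 RPKM or more and a median of 7.37 RPKM.

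The RNA of the called genes was set beside their 5mC after the calls were seen, as a description with no test, using the transcript with the most counts. Among the genes called lower in 5mC with at least 1 CPM at 12 weeks, 18 (17.8%) had more RNA in all DMM than in all control libraries and 5 (4.95%) had less. Among all 7136 such genes tested, 9.98% had more RNA and 11% had less without overlap. Of the 11 genes called higher in 5mC that had at least 1 CPM, 1 had more and 3 had less RNA without overlap. Gdf5 RNA was 3.38, 5.63 and 2.32 CPM in control and 7.32, 9.93 and 6.76 CPM in DMM libraries, and Omd RNA was 172, 219 and 102 against 286, 422 and 237 CPM. Both had lower gene-body 5mC and more RNA in the operated limb, with no overlap in either measure. Cdc42ep3, with the largest fall in 5mC, had 161, 173 and 137 against 166, 200 and 182 CPM, which overlapped, and Pxk had less RNA, at 70.7, 76.8 and 72.5 against 62.2, 60.1 and 67.5 CPM. Scarf2, which rose in 5mC, also had more RNA, at 9.10, 15.3 and 14.7 against 42.6, 27.4 and 17.9 CPM, whereas Mafg, which rose too, had less, at 42.6, 34.97 and 43.7 against 34.2, 27.9 and 33.7 CPM. The direction of RNA thus differed among genes of the same direction of 5mC. Dlx5 RNA overlapped between limbs, at 32.3, 43.4 and 24.1 against 42.4, 59.2 and 45.4 CPM.

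Genes of cartilage and joint biology were read in lists. Over all 12247 genes tested the median 12-week difference in gene-body 5mC was -1.48 points, 1.53% passed and 8.41% held a DMC, and the counts in the lists are to be read beside these shares. None of the 16 measured cartilage matrix genes passed (median -2.87 points), and the 1 of them with a DMC named here, Prelp, a leucine-rich proteoglycan, read 43.5%, 35.7% and 49.4% in control and 23.8%, 32.0% and 24.1% in DMM (limma adjusted p = 0.062). Of 11 chondrocyte transcription factor genes, a list that also holds Gdf5, only Gdf5 passed, with a median of -5.49 points. In that list Sox5 and Sox6, which support SOX9 in chondrocytes, held 4 and 1 DMCs, Erg held 3 and Nfatc1 held 2, all lower in DMM. Erg also stands in the endothelial list and Nfatc1 in the osteoclast list, and each was the only gene with a DMC there. Over its 242 cytosines Sox5 read 69.8%, 70.7% and 70.7% in control and 64.98%, 68.6% and 65.1% in DMM libraries, a difference that did not pass in limma (adjusted p = 0.152). Of 14 genes of hypertrophy and ossification 1 passed, Dlx5, and it was higher, whereas the median of the list was -2.88 points. Runx2, the factor that drives hypertrophy and bone formation, held 1 lower DMC and read 54.0%, 55.3% and 56.3% against 51.3%, 53.4% and 49.9% (adjusted p = 0.221 in limma).

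Of 20 collagen genes outside the cartilage matrix list 2 passed, Col15a1 and Col5a2, both lower, with a median of -3.90 points, beside 1.53% of all genes tested. Col15a1, a basement membrane collagen, read 56.0%, 55.1% and 57.9% against 47.6%, 49.8% and 48.1%, with 8 of its 34 cytosines shared with the called gene Gm32317, and Col5a2, a fibrillar collagen chain, read 72.8%, 81.3% and 77.4% against 70.9%, 66.4% and 66.7%. By BS the limbs of Col5a2 overlapped, at 80.5%, 85.4% and 87.8% against 83.1%, 81.8% and 84.7% (-1.34 points), and Col15a1 differed by -3.40 points. In the list Col6a3 and Col26a1 held 3 DMCs each, Col13a1 2 and Col5a1 1, all lower, and Col5a1 read 70.2%, 69.4% and 71.3% against 62.9%, 64.9% and 63.2% (adjusted p = 0.0744 in limma). Of 19 matrix proteases and inhibitors Adamts1 passed, a protease that can cleave aggrecan, at 36.1%, 33.5% and 40.5% against 25.03%, 27.2% and 24.9%. Timp2, an inhibitor of matrix metalloproteinases with 2 lower DMCs, just missed the threshold at 63.6%, 60.3% and 65.4% against 50.9%, 55.9% and 54.2% (limma adjusted p = 0.0501). The called members Col15a1, Col5a2 and Adamts1, and Dkk3 and Fzd8 among the WNT genes, are named because they passed, after their values were seen.

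In TGF-beta and BMP signalling 0 of 19 genes passed in limma, with a median of -4.39 points. Smad3, the receptor-activated transducer of TGF-beta, held 3 lower DMCs and read 49.7%, 51.0% and 52.2% in control and 42.7%, 44.4% and 41.4% in DMM libraries (adjusted p = 0.063 in limma). Smad7, the inhibitor of the pathway, read 34.5%, 33.4% and 35.5% against 24.3%, 27.9% and 25.3% (adjusted p = 0.0583 in limma), and the receptor gene Acvr1 held 2 lower DMCs. The limbs did not overlap in either SMAD gene, as in the 26.2% of all genes tested that were lower in DMM without overlap. In WNT signalling 2 of 20 genes passed, the secreted modulator Dkk3 and the receptor Fzd8, both lower, with a median of -3.71 points. Tcf7l2, a transcription factor at the end of the pathway, held 4 lower DMCs, and the receptor Ror2 held 3. Among 14 genes of inflammation and stress none passed in limma (median -3.02 points), and Tnfrsf11b, the gene of osteoprotegerin, held 3 lower DMCs and over all of its 7 cytosines read 59.5%, 66.3% and 64.05% against 37.6%, 55.1% and 37.1% (adjusted p = 0.0726). No gene passed among 17 integrins and matrix receptors (median -2.62 points) or 9 enzymes that write or erase DNA methylation (median -3.05 points, with 2 lower DMCs each in Dnmt1 and Dnmt3a).

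The lists of other cell types had medians between -2.12 and 0.213 points. They were -1.29 points over 11 muscle genes, -2.12 over 8 blood and marrow genes, 0.213 over 10 endothelial genes, -0.434 over 7 osteoclast genes and -0.868 over 7 fibroblast and synovium genes, and no member passed in limma. Runx1, a factor of blood formation that cartilage also uses, held 5 lower DMCs and read 62.5%, 63.3% and 65.5% against 55.3%, 57.4% and 58.2% (adjusted p = 0.118 in limma). Thy1, a fibroblast marker, was the only list gene named here with a DMC higher in DMM, at 44.1%, 37.7% and 34.2% against 50.3%, 50.6% and 49.7%. The genes that the study itself named for methylation had a median of -5.06 points over 14 genes with none called, and since they were picked on these samples their direction is not independent evidence.

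Single cytosines called for 5hmC outnumbered those called for 5mC at 4 weeks (62 against 3) and were fewer at 12 weeks (260 against 1594). The order at 4 weeks rested on control 2, without which 448 were called for 5hmC and 1680 for 5mC, and at a coverage of 20 there was 1 call for each mark. The marks were also not called alike. For 5hmC the oxBS fraction was subtracted from the BS reads and taken as exact, with negative values set to 0. A test on the raw reads of both, as an interaction of limb and conversion, called 0 in either week. Of the 62 calls at 4 weeks, 31 were higher in DMM and 31 lower, beside 0.00809% of all cytosines of the series (0.00474% higher and 0.00334% lower). The 12-week libraries gave 260, of which DMM was higher at 221 and lower at 39, beside 0.0383% of all cytosines (0.0325% higher and 0.00583% lower). These splits depended on single libraries. Without DMM 1 of 4 weeks 569 were higher and 58 lower, and without control 1 of 12 weeks 379 were higher and 403 lower. With variation among libraries in the test 0 were called in either week, with 16842 of 319094 and 13905 of 296314 at an unadjusted p under 0.05. Both counts are near the share of 0.05 that would be expected with no difference. The 12-week calls fell in 246 genes. Of these, 223 held 1 call. Lgr6, a receptor for R-spondins, held 3, of which 2 were lower in DMM. Bag3, Spry1, Ndst1 and Plekhh3 were the genes with 2 calls that had the largest differences at them. Over the gene body the limbs overlapped in 5hmC of Lgr6, Spry1 and Plekhh3. In Ndst1, an enzyme of heparan sulfate synthesis, gene-body 5hmC was 6.53, 4.29 and 3.71 points in control and 11.1, 8.90 and 10.2 points in DMM over 83 cytosines, with an adjusted p of 0.632 in limma. Bag3, a chaperone partner, had 4.28, 4.66 and 5.51 points against 10.2, 10.4 and 9.61 points (limma adjusted p = 0.632).

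Over whole gene bodies limma called 5hmC in 1 of 12259 genes at 4 weeks (0.00816%) and 0 of 11888 at 12 weeks. At 12 weeks 876 had an unadjusted p under 0.05, where a share of 0.05 would be expected with no difference. The 1 gene, Gm31671, a predicted gene with 6 cytosines within 41 bp, had 26.6, 20.99 and 24.0 points in control and -10.01, -3.16 and -5.31 points in DMM (adjusted p = 0.0238 in limma). Its negative DMM values mean that BS read lower than oxBS there, at a coverage of 11 to 82 reads, and it was not measured at 12 weeks. The call was lost at a coverage of 20, with curated transcripts, without CCGG cytosines, with at least 10 cytosines per gene and without any 1 library. At 4 weeks it also held 5 of the 62 called cytosines, the most of any gene, and Foxp1, Foxp4 and Ube2o held 2 each. At 12 weeks the smallest p belonged to Tnfrsf11b, with -3.12, -4.08 and -5.90 points in control and 12.4, 18.8 and 19.5 points in DMM (adjusted p = 0.357 in limma). Sod3, the extracellular superoxide dismutase of cartilage matrix, had -2.80, -0.0438 and -1.82 points against 7.17, 7.83 and 7.36 points over 33 cytosines (adjusted p = 0.479 in limma). In both genes the control values were below 0.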

How the data were processed

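Control and DMM cartilage at 4 and 12 weeks was measured by oxBS, BS and RNA sequencing, 3 samples per group and 36 in all. Per the labels and the methods of the study, reads were trimmed with CUTADAPT and called by an in-house pipeline; the submitters' processing notes list CASAVA 2.17, Bismark and mm10. The deposited methylation files give, for each cytosine with at least 10 reads, the coverage as a whole-number count and the percent of reads that remained C or became T. The deposited RNA tables hold the authors' featureCounts read counts after STAR alignment, 1 row per transcript, from which CPM and, with RefSeq transcript lengths, RPKM were computed.

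Cytosines were placed with the RefSeq annotation of GRCm38, where an exon is an exon of any transcript. A DMC came from a likelihood ratio test on reads pooled per limb, with Benjamini-Hochberg adjustment over all cytosines outside the mitochondrial genome. For 5hmC the reads tested were methylated BS reads after subtraction of the oxBS fraction, which was taken as exact. Gene bodies with at least 5 cytosines were compared by limma 3.58.1 (R 4.3.3, trend and robust fits). For 5mC reads were summed over the cytosines of a gene, and the log2 of methylated plus 1 over unmethylated plus 1 reads was tested. This weights cytosines by their reads, whereas the 5mC percentages given per gene are unweighted means over cytosines. For 5hmC the mean percent difference was tested. Library means were compared by exact two-sided permutation tests. All tests were run in Python 3.11.15 and R. The 5mC tests of cytosines and of genes were tried on simulated data, and the permutation tests and the 5hmC tests were not. The simulated cytosine reads held no variation among libraries beyond counting error. PCR duplicates carry no molecular identifier here, so read-level tests, and with them the q-values of DMCs, cover counting error at most. The p-values of limma and of permutation between limbs measure the spread between pools of 3 knees. Those of sign-flip tests rest on differences within libraries.

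Named genes were, in each week and for each mark, up to 10 genes per direction past the gene-level threshold or, if fewer than 5 passed, the 5 with the smallest p; the genes with the most DMCs (10 for 5mC at 12 weeks, otherwise 5); up to 4 genes with a DMC in each list; and the genes with the highest and lowest levels. The cytosine set, the gene lists and the tests were chosen with earlier results of these data known. Alternatives were a coverage of 20, curated transcripts, leaving out CCGG cytosines, a test with the spread between libraries, a replicate block, and leaving out each library.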

Additional observations from a re-analysis of the deposited data

How the results depend on the processing

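In all, 205 of the values of the main results under alternatives were rated as the same, 79 as no longer significant, 61 as moved and 7 as reversed. For counts of calls the rating rests on the size of the count and not on its direction. The 12-week 5mC DMCs, 1594 in the main run, were rated as the same at 2370 without DMM 2. No exact sign-flip test can pass with a library left out, so a loss of significance there was fixed in advance. Exact permutation tests within a single week could not pass in the main run either, so they had no significance to lose. Where not stated, the cause of a change was not tested.

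Gene-body 5mC DMCs (3 at 4 weeks, 1594 at 12 weeks) numbered 1 and 845 at a coverage of 20, and 619 at 12 weeks without CCGG cytosines. With variation among libraries in the test 0 and 0 were called. Leaving out 1 library gave 1 to 1680 at 4 weeks (1680 without control 2, 113 without DMM 1) and 899 to 2969 at 12 weeks (2969 without control 2, 899 without DMM 1). Control 2 and DMM 1 of 12 weeks share a naming style in the labels, while among the other libraries style and limb cannot be told apart, and without both 774 were called. The 5hmC DMCs (62 and 260) numbered 1 and 43 at a coverage of 20, 27 and 116 without CCGG cytosines, 0 and 0 with variation among libraries, 0 and 0 as an interaction of limb and conversion, 763 at 12 weeks without both of those libraries, and 94 to 627 and 398 to 782 without 1 library.

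The genes with changed 5mC at 12 weeks (187) numbered 303 at a coverage of 20, 110 without CCGG cytosines, 389 with at least 10 cytosines, 524 on the percentage scale, 0 without control 2 and DMM 1, and 0 to 70 without 1 library, where fewer libraries remain. The 1 gene called for 5hmC at 4 weeks was lost (0) at a coverage of 20, with curated transcripts, without CCGG cytosines, with at least 10 cytosines, under the replicate block and without any 1 library.

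No source says that replicate numbers pair the libraries. Deviations of same-numbered libraries correlated at 0.54, 0.46 and 0.02 for 5mC at 4 weeks and at -0.03, -0.03 and 0.03 at 12 weeks, so the numbers were not taken to pair the samples. At 4 weeks each library correlated best with its own number for 5mC, a hint from the data only. With a replicate block, 5mC DMCs numbered 482 at 4 weeks and 1549 at 12 weeks, 5hmC DMCs 188 at 4 weeks, and genes with changed 5mC 18 at 4 weeks and 0 at 12 weeks.

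Weighted by reads, the limb difference over both weeks was -1.72 points in 5mC (exact permutation p = 0.055) and 0.985 points in 5hmC (exact permutation p = 0.07). Without 1 library these differences were -2.21 to -1.29 points and 0.773 to 1.35 points, with exact permutation p of 0.005 to 0.055 and 0.005 to 0.075. The change of the limb difference between weeks was -1.36 to 0.490 points in 5mC and -0.426 to 0.738 points in 5hmC without 1 library, reversing without control 2 or DMM 1 of 4 weeks for 5mC and in 3 cases for 5hmC.

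With curated transcripts exon minus intron 5mC was 1.51 points at 4 weeks and 1.29 at 12 weeks. Without 1 library, when 5 remain and no exact sign-flip test can pass, the 4-week and 12-week ranges kept their signs. For 5mC they were -1.28 to -0.945 and -1.20 to -0.976 points for exon minus intron, 53.9 to 54.7 and 56.2 to 56.8 for gene body minus promoter, and 0.975 to 1.21 and 1.57 to 1.74 for gene body minus intergenic. For 5hmC they were -1.71 to -1.56 and -1.23 to -1.11, 4.54 to 5.04 and 3.23 to 3.58, and 1.58 to 1.76 and 1.16 to 1.29 points.

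Single genes that had not passed reversed in 9 cases. Gene-body 5mC of Col4a1 at 4 weeks, on the log2 scale, was -0.0395 at a coverage of 20, -0.0244 with curated transcripts and -0.0264 to 0.067 without 1 library. That of Vipr1 was 0.0118 at a coverage of 20, 0.00073 without CCGG cytosines, 0.0135 points on the percentage scale and -0.122 to 0.0455 without 1 library. In 5hmC, Fndc3b at 4 weeks ranged from -0.169 to 3.92 points without 1 library, and Spry1 at 12 weeks was -0.528 points at a coverage of 20.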

Other observations

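The extremes of gene-body 5mC were taken among genes with at least 20 gene-body cytosines in both weeks and a named symbol (4119 genes, median control level 69.6%, from 0.372% to 94.6%). The 5 highest were Zfp334, Zfp775, Zfp11 and Zfp7, which code for zinc finger proteins, and Stk19. Zfp334 read 93.8%, 95.4% and 95.4% in control and 94.6%, 95.1% and 94.6% in DMM libraries at 4 weeks, and 93.8%, 94.3% and 94.9% against 95.4%, 95.7% and 94.4% at 12 weeks. The 5 lowest were Krt10 and Lor, genes of the outer skin, Vcan, the large proteoglycan versican, Marcks and Arhgef39. Marcks, with 123 cytosines at 4 weeks, read 0.798%, 0.704% and 0.726% in control and 0.774%, 0.728% and 0.488% in DMM libraries. These genes sat at either end of the scale in both limbs and both weeks.

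The 10 highest in gene-body 5hmC (of 3876 genes, median 3.97 points, highest 13.2) were Ppp3ca, Cemip2, Chst12, Cnn3, Nck2, Nr1d2, Hoxc4, Sec24b, Klf3 and Dgkh. Ppp3ca, which also held 6 5mC DMCs at 12 weeks, had 14.2, 22 and 17.1 points in control and 17.1, 21.3 and 19.4 points in DMM at 4 weeks, with overlap. At 12 weeks Ppp3ca had 8.85, 8.77 and 8.42 points against 15.8, 10.8 and 15.2 points, with no overlap. Chst12, an enzyme that adds sulfate to chondroitin, the sugar chain of cartilage proteoglycans, had 12.4, 22.4 and 16.5 against 19.9, 20.8 and 22.02 points at 4 weeks. At 12 weeks Chst12 had 6.66, 11.2 and 9.15 points in control and 19.8, 17.9 and 15.4 points in DMM libraries, and Nr1d2, a nuclear receptor of the circadian clock, had 11.7, 9.46 and 10.2 against 16.4, 15.9 and 17.2 points. These genes were chosen for their control level in both weeks. Limb values are given for Ppp3ca, Chst12 and Nr1d2 only and without a test, so they do not stand for the other genes of the 10.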
